A study of Homo sapiens with 6 samples.

Results

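The genes described here were those with clearly more RNA in OCI-LY8 cells labelled as a SETD1B knockout than in their controls. They were chosen on the data themselves, from CPM (reads of a gene per 1000000 reads counted in its library). A gene was taken when its mean knockout CPM was 0.5 or more and each of the 3 knockout values was at least 1.8 times the highest control value, with some genes and gene families left out by name. The rule gave 24 of the 26485 genes in the count table, and 18486 of those were detected in 1 library or more. The thresholds alone were passed by 32 genes, 0.258% of the 12383 genes with a mean knockout CPM of 0.5 or more, and 8 of those were left out by name. Because the rule used the contrast between the groups, the size and direction of that contrast in these 24 genes are a description and carry no test.

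OCI-LY8 is an established human lymphoma line with features of germinal centre B cells. Poly(A) RNA was sequenced from 3 control libraries, made from cells with a non-targeting guide RNA and a genotype labelled WT, and from 3 knockout libraries, made from cells with a guide RNA against SETD1B. Each group carries 1 guide name and no label says that its replicates were separate cultures, so p-values reflect only how these samples vary, possibly for technical reasons, and an effect of SETD1B loss cannot be told apart from other differences between the control cells and the knockout cells. The design text of the series names another line, OCI-LY19, and calls it KMT2D mutant, whereas all 6 sample labels name OCI-LY8.

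SETD1B is the catalytic subunit of a complex that methylates histone H3 at lysine K4, a mark found at active promoters. The complex reaches promoters rich in CpG dinucleotides through its CFP1 subunit, and the related enzymes SETD1A and KMT2D methylate the same residue. Germinal centre B cells run a B-cell programme in which many genes of other lineages are silent.

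The libraries held between 28726108 and 34453249 counted reads, so that 3 counts, the limit a count of 0 allows, stood for 0.0871 to 0.104 CPM. The SETD1B transcript had no lower level in the knockout group. It was measured at 59.9, 55.2 and 54.3 CPM in control replicates 1, 2 and 3 and at 87.1, 89.0 and 54.9 CPM in knockout replicates 1, 2 and 3, a log2 difference of 0.47 (SE 0.18, edgeR's quasi-likelihood test, Benjamini-Hochberg adjusted p = 0.14). A guide can disrupt a protein without lowering its transcript, so this value does not check the edit, and "knockout" names the label. Knockout replicate 3 stood apart from the rest of its group: the chi-square per degree of freedom between libraries was 44.8 and 56.7 against knockout replicates 1 and 2, and 5.38 between those. Among controls it ran from 1.83 to 3.79. Results on other genes are therefore also given without that library. The 6 libraries had the B-cell markers CD79A and PAX5. Summed B-cell identity markers ranged from 4730 to 4770 CPM in the controls and from 4610 to 5740 CPM in the knockouts. CR2 was at 0 among 22 markers. The sum hides opposite changes. Of 21 markers tested, 4 passed the test upward and 5 downward, against 5.71% and 9.33% of all tested genes. PAX5 rose from 545 to 850 CPM (log2 difference 0.66, SE 0.09, edgeR adjusted p = 0.004). MS4A1 fell from 444 to 258 CPM (log2 difference -0.77, SE 0.08, edgeR adjusted p = 0.0013). Without knockout replicate 3 the counts were 13 upward and 5 downward, against 21.6% and 22.8% of all genes. In bulk RNA, fewer cells that express a gene and less RNA of it per cell cannot be told apart.

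All 24 genes are protein coding, and they lie on 17 chromosomes. Their promoters covered most of the range of CpG content. RefSeq (GRCh38.p14) gave a window from 250 bases before to 50 bases after the start for 19 of them, and 6 windows are shown because they span that range, from no CG dinucleotide in the window of TNFSF13B to 52 in that of TTC28. The windows are chr13:108269379-108269678 (+) for TNFSF13B, chr3:132317157-132317456 (+) for ACPP, chr1:89198893-89199192 (-) for GBP4, chr7:33904665-33904964 (+) for BMPER, chr17:62965985-62966284 (+) for TANC2 and chr22:28679791-28680090 (-) for TTC28. Each is printed 5' to 3' on the strand of its gene, with CG dinucleotides in capitals.
TNFSF13B: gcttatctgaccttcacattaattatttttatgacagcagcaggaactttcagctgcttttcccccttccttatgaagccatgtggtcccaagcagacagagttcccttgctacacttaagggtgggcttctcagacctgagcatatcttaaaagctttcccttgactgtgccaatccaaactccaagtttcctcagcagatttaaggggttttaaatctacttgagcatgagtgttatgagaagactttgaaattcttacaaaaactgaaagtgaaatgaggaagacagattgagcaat
ACPP: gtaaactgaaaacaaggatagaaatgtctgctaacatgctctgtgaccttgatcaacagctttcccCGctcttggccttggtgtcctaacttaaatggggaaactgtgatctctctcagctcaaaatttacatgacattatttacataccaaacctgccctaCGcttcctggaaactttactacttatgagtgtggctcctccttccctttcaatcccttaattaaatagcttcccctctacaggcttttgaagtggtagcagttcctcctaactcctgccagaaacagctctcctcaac
GBP4: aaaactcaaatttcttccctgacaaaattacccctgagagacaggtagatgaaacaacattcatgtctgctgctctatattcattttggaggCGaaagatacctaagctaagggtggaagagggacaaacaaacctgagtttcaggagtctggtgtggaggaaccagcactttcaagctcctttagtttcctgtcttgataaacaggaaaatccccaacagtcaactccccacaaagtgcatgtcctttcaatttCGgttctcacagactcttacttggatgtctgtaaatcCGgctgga
BMPER: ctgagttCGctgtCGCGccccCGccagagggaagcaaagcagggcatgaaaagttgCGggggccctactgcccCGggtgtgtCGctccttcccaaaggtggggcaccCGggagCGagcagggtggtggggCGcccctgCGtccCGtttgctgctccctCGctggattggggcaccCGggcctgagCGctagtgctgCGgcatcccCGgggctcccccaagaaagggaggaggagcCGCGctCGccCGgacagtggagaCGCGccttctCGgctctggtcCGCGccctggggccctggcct
TANC2: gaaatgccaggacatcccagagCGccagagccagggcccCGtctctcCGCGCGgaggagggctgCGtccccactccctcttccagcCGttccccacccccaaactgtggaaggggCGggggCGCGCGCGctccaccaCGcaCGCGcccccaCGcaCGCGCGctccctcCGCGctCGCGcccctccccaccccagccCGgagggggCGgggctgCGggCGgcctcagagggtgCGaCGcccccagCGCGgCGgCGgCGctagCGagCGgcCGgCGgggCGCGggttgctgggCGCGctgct
TTC28: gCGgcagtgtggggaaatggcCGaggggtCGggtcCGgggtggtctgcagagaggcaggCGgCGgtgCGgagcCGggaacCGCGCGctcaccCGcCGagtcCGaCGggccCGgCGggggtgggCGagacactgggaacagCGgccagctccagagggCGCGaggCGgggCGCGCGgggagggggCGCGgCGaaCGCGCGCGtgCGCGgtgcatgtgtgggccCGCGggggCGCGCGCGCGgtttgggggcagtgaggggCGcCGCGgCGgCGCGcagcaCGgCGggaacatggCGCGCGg

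The window of ACPP held 2 CG dinucleotides, that of GBP4 3, that of BMPER 26 and that of TANC2 42. Over the 19 windows the median was 19, against 26 in 9894 windows of other tested genes and 14 in all 27305 windows. The other tested genes were not matched for RNA level. Fewer than 10 CG dinucleotides were found in 3 of the 19 (15.8%), in 13.0% of the windows of other tested genes and in 44.0% of all windows. The 3 genes with few CG dinucleotides, TNFSF13B, ACPP and GBP4, encode a cytokine, a secreted or membrane phosphatase and an interferon-inducible GTPase.

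**Figure D1:**
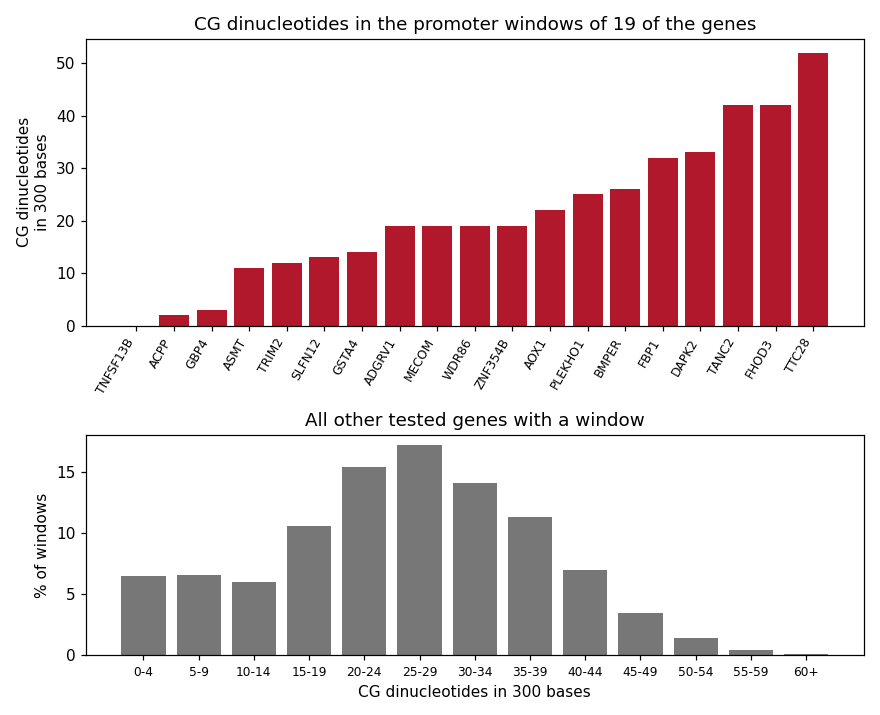
Number of CG dinucleotides in the promoter window (250 bases before to 50 after the start) of each gene that has one. A second panel gives the distribution in windows of other tested genes. TNFSF13B, ACPP and GBP4 lie below 10 CG dinucleotides and TTC28 is highest with 52.

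Levels were low before and after. The median of the control means was 0.553 CPM and that of the knockout means 1.92 CPM, and the median ratio of means was 3.17, from 1.93 to 41.2. Control means under 1 CPM were found for 15 of the 24 genes (62.5%), against 8.65% of all 12907 tested genes, whose median control mean was 31.0 CPM. The rule used these same values and the tested genes had passed a low-count filter, so nothing is read from this difference. In the knockout libraries 19 genes reached a mean of 1 CPM, 12 reached 2 CPM, 5 reached 5 CPM and 2 reached 10 CPM. The ratio of means was 3 or more for 16 genes, 4 or more for 7 and 5 or more for 5. For RNF19B and TRIM2 it was 1.93, under a doubling. The knockout values lay above all control values for each gene, which the rule requires. The same was true of 14.2% of all tested genes.

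**Figure D2:**
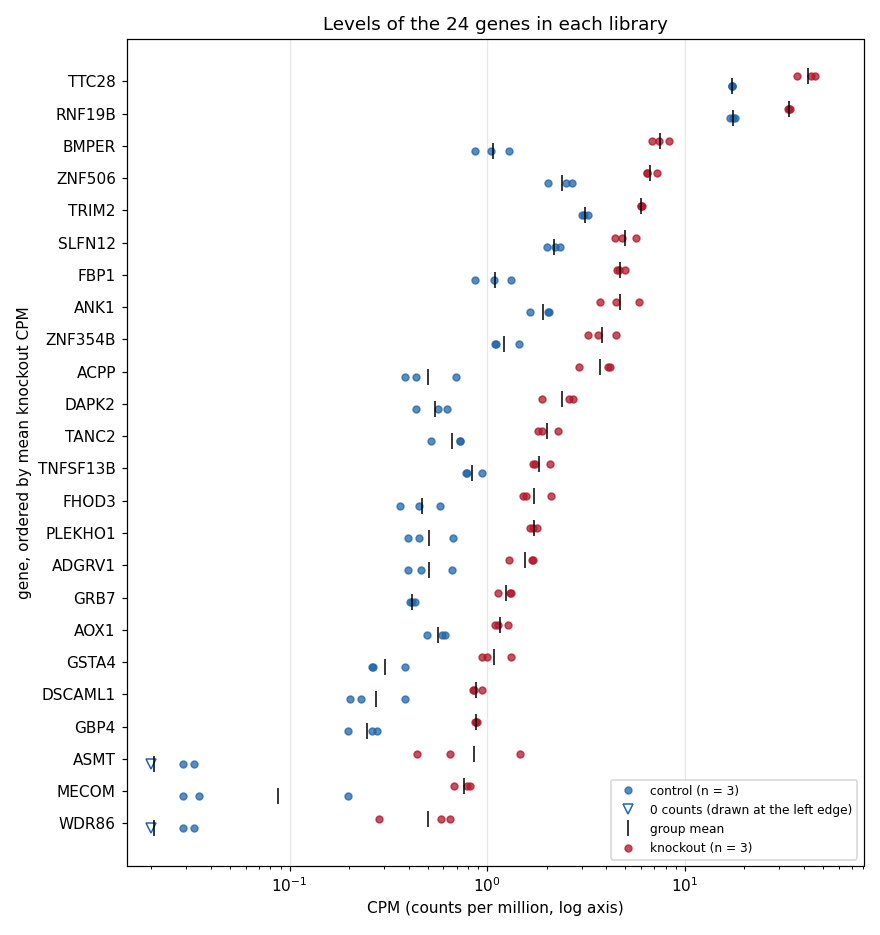
CPM of each of the 24 genes in the 3 control and the 3 knockout libraries on a log axis, 1 point per library. RNF19B and TTC28 lie highest, and most of the other genes lie near or below 1 CPM in the controls.

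TTC28 had the highest knockout CPM of the 24 genes. It encodes a large tetratricopeptide repeat protein of the midbody in dividing cells and lies at chr22:27978014-28679840 (hg38, - strand). Control replicates 1, 2 and 3 held 17.3, 17.3 and 17.2 CPM of TTC28 and knockout replicates 1, 2 and 3 held 45.3, 43.2 and 36.9 CPM, a ratio of means of 2.42 (17.3 ± 0.076 against 41.8 ± 4.34 CPM, SD, n = 3). The controls were almost identical and knockout replicate 3 was the lowest of its group.

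RNF19B and TRIM2 encode RING-type E3 ubiquitin ligases, the first known from the killing function of natural killer cells and the second from neurons. RNF19B (chr1:32929036-32964809) was at 16.9, 17.4 and 17.9 CPM in the controls and at 33.6, 33.9 and 33.2 CPM in the knockouts. TRIM2 (chr4:153152163-153339317) was at 3.25, 3.03 and 3.07 CPM in the controls and at 6.01, 6.06 and 5.98 CPM in the knockouts. These genes had the smallest ratios and, by coefficient of variation, the 2 tightest knockout groups, with means of 33.6 ± 0.326 and 6.01 ± 0.0372 CPM (SD, n = 3). Per kilobase of exon, RNF19B had the highest level of the 24 genes, 6.66 CPM per kilobase in the controls and 12.9 in the knockouts, followed by TTC28 at 1.37 and 3.31.

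Genes for DNA-binding proteins were ZNF506, ZNF354B and MECOM. ZNF506 and ZNF354B encode KRAB zinc finger proteins, a family of repressors that mostly bind transposable elements. In the controls ZNF506 (chr19:19792711-19821750) was at 2.67, 2.51 and 2.02 CPM, and in the knockouts it was at 6.43, 6.4 and 7.21 CPM, a ratio of 2.79 (2.4 ± 0.341 against 6.68 ± 0.462 CPM, SD, n = 3). ZNF354B (chr5:178859953-178885020) went from 1.45, 1.11 and 1.09 CPM in the controls to 3.65, 4.48 and 3.24 CPM in the knockouts, a ratio of 3.11. Knockout replicate 3 was the highest library for ZNF506 and the lowest knockout library for ZNF354B.

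MECOM, also called EVI1, is a zinc finger transcription factor of haematopoietic stem cells that is activated by rearrangement in some myeloid leukaemias. It lies at chr3:169083507-169663712 and was close to the detection limit, with 1, 1 and 6 reads in the controls and 21, 24 and 25 reads in the knockouts. This is 0.029, 0.0348 and 0.198 CPM against 0.678, 0.821 and 0.787 CPM. The ratio of pooled counts was 8.89, with a 95% exact interval for counting error alone of 4.27 to 21.4. Control replicate 3 held 6 of the 8 control reads, and without it the ratio of pooled counts was 24 (6.41 to 202). Control replicate 3 was the only control library above the level of 3 counts, and the knockout libraries were close to each other.

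Secreted and signalling proteins formed a further group. BMPER, a secreted protein that binds bone morphogenetic proteins (BMPs) and modulates their activity, is the first of these. BMPER (chr7:33904915-34156427) was at 1.04, 0.87 and 1.29 CPM in the controls and at 7.36, 6.84 and 8.28 CPM in the knockouts, 1.07 ± 0.21 against 7.5 ± 0.729 CPM (SD, n = 3), a ratio of 7.02. Knockout replicate 3 was the highest library.

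ACPP, called ACP3 in current annotation, is prostatic acid phosphatase, which also removes phosphate from extracellular AMP in sensory neurons. ACPP (chr3:132317407-132368302) was at 0.435, 0.383 and 0.694 CPM in the controls and at 4.17, 2.91 and 4.09 CPM in the knockouts. The ratio of means was 7.38 (0.504 ± 0.167 against 3.72 ± 0.706 CPM, SD, n = 3), the highest among genes with a mean knockout level of 1 CPM or more. Knockout replicate 2 was the lowest of its group.

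TNFSF13B encodes BAFF, the cytokine that keeps B cells alive and that is made mainly by myeloid and stromal cells. TNFSF13B (chr13:108269629-108308484) was at 0.784, 0.94 and 0.793 CPM in the controls and at 2.07, 1.74 and 1.7 CPM in the knockouts, a ratio of 2.19. The groups lay close to the limit of the rule. The summed myeloid markers were 22.9 to 29.1 CPM in the controls and 11.2 to 16.3 CPM in the knockouts, with MPO, ELANE, S100A8, S100A9 and FCGR1A at 0 among 16 markers.

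Of the 3 receptors of BAFF, 2 fell and 1 did not pass the test, where 9.33% of all tested genes were called lower. TNFRSF13B, the receptor TACI, fell from 16.0 ± 0.499 to 4.24 ± 0.69 CPM (log2 difference -1.9, SE 0.13, edgeR adjusted p = 0.00023). TNFRSF17, the receptor BCMA of plasma cells, fell from 13.8 ± 1.2 to 5.93 ± 0.464 CPM (log2 difference -1.19, SE 0.11, edgeR adjusted p = 0.00061). TNFRSF13C, the BAFF receptor of mature B cells, was at 23.8 ± 0.558 and 24.6 ± 3.49 CPM (log2 difference 0.07, SE 0.11, edgeR adjusted p = 0.73). TNFSF13, the related ligand APRIL, did not pass either (16.8 against 14.7 CPM, log2 -0.18, edgeR adjusted p = 0.36).

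GBP4 and SLFN12 belong to families induced by interferons. GBP4, a guanylate-binding GTPase (chr1:89181144-89198942), had 9, 8 and 6 reads in the controls and 27, 26 and 28 reads in the knockouts, or 0.261, 0.278 and 0.198 CPM against 0.872, 0.889 and 0.882 CPM. Its ratio of means was 3.58, and its 3 knockout libraries differed by less than those of most genes here (0.881 ± 0.00886 CPM, SD, n = 3). SLFN12, a Schlafen family protein (chr17:35410922-35433174), was at 2.0, 2.33 and 2.21 CPM in the controls and at 4.42, 4.82 and 5.64 CPM in the knockouts, a ratio of 2.27.

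Of 28 other interferon response genes tested, 4 passed the test upward and 3 downward, against 5.71% and 9.33% of all tested genes, and the median log2 difference was -0.02 (all tested genes -0.01). IFIH1, the RNA sensor MDA5, rose from 29 ± 0.986 to 52.3 ± 1.72 CPM (log2 difference 0.87, SE 0.06, edgeR adjusted p = 0.00021), whereas IFI44 fell from 13.0 ± 0.4 to 8.22 ± 0.944 CPM (log2 difference -0.64, SE 0.1, edgeR adjusted p = 0.0073). Without knockout replicate 3 the counts were 10 upward and 6 downward, and the shares of all genes were 21.6% and 22.8%.

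Among kinases and adaptors, DAPK2 is a calcium and calmodulin dependent death-associated protein kinase. DAPK2 (chr15:63907036-64046485) was at 0.435, 0.627 and 0.562 CPM in the controls and at 2.58, 2.7 and 1.89 CPM in the knockouts, a ratio of 4.42 (0.541 ± 0.0973 against 2.39 ± 0.439 CPM, SD, n = 3), with knockout replicate 3 lowest. GRB7 is an adaptor that binds receptor tyrosine kinases and is co-amplified with ERBB2 in breast cancer. GRB7 (chr17:39737938-39747285) was at 0.406, 0.418 and 0.43 CPM in the controls and at 1.32, 1.3 and 1.13 CPM in the knockouts, a ratio of 3.0. PLEKHO1, a pleckstrin homology protein that binds casein kinase 2 (chr1:150149646-150160065), was at 0.668, 0.453 and 0.397 CPM in the controls and at 1.65, 1.71 and 1.79 CPM in the knockouts, a ratio of 3.4. The 3 knockout libraries of PLEKHO1 lay closer together than its controls.

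Of 11 receptor tyrosine kinase genes tested, none passed upward and 4 passed downward (36.4%), against 5.71% and 9.33% of all tested genes. FLT1, a receptor for vascular endothelial growth factor, fell from 19.7 ± 1.12 to 8.5 ± 0.388 CPM (log2 difference -1.19, SE 0.08, edgeR adjusted p = 0.00025). The median log2 difference of the list was -0.19, and without knockout replicate 3 the counts were 1 upward (9.09%) and 6 downward (54.5%), against 21.6% and 22.8% of all genes.

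The genes of metabolism were FBP1, GSTA4, AOX1 and ASMT. FBP1, a rate-limiting enzyme of gluconeogenesis (chr9:94603133-94640263), was at 0.871, 1.08 and 1.32 CPM in the controls and at 5.0, 4.62 and 4.53 CPM in the knockouts, 1.09 ± 0.226 against 4.72 ± 0.251 CPM (SD, n = 3), a ratio of 4.33. Its knockout values were close to each other, and per kilobase of exon it had 0.627 CPM as its control mean and 2.71 CPM as its knockout mean. GSTA4 is a glutathione transferase that detoxifies aldehydes from lipid peroxidation. GSTA4 (chr6:52977953-52995284) was at 0.261, 0.383 and 0.264 CPM in the controls and at 1.32, 0.992 and 0.945 CPM in the knockouts, a ratio of 3.59. AOX1, an aldehyde oxidase (chr2:200586014-200682241), was at 0.61, 0.592 and 0.496 CPM in the controls and at 1.1, 1.27 and 1.13 CPM in the knockouts, a ratio of 2.06, and it was the gene closest to the limit of the rule.

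ASMT, which carries out the last step of melatonin synthesis and lies in a pseudoautosomal region (chrX:1615059-1643081), had the highest ratio of means, from very few control reads. It had 1, 0 and 1 reads in the controls and 20, 43 and 14 reads in the knockouts, with a ratio of pooled counts of 39.1 (95% exact interval for counting error 10.5 to 329). Its knockout libraries differed by 3.34 times, with replicate 2 at 1.47 CPM and replicate 3 at 0.441 CPM, the widest spread among the 24 genes. Without knockout replicate 2 the ratio of its mean CPM was 26.3, without replicate 1 it was 46.2 and without replicate 3 it was 51.2. WDR86 (chr7:151368955-151410712) had 1, 0 and 1 reads in the controls and 20, 17 and 9 in the knockouts, a ratio of 23.4 (6.11 to 199). It was the only one of the 24 with too few counts to be tested, and it overlaps NUB1 and WDR86-AS1 on the other strand.

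Structural proteins of muscle, red cells and neurons made up the last group. ANK1, the ankyrin that ties the spectrin skeleton of red cells to their membrane (chr8:41653225-41896741), was at 1.65, 2.05 and 2.02 CPM in the controls and at 5.84, 4.48 and 3.72 CPM in the knockouts, a ratio of 2.45 with replicate 3 lowest. FHOD3, an actin-organising formin of heart muscle (chr18:36297713-36780220), was at 0.58, 0.453 and 0.364 CPM in the controls and at 2.1, 1.51 and 1.57 CPM in the knockouts, a ratio of 3.71. Of 16 erythroid and megakaryocyte markers 9 were at 0 in all libraries, among them HBA1, HBA2 and PF4, and the sum of the list was 4.16 to 4.6 CPM in the controls and 4.88 to 6.85 CPM in the knockouts.

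TANC2 is a scaffold protein of the postsynaptic density. TANC2 (chr17:62966235-63427703) was at 0.522, 0.731 and 0.727 CPM in the controls and at 2.29, 1.81 and 1.89 CPM in the knockouts, a ratio of 3.03 (0.66 ± 0.119 against 2.0 ± 0.258 CPM, SD, n = 3). ADGRV1 is a very large adhesion receptor that is mutated in Usher syndrome. ADGRV1 (chr5:90558797-91164437) was at 0.464, 0.661 and 0.397 CPM in the controls and at 1.29, 1.68 and 1.7 CPM in the knockouts, a ratio of 3.07, and per kilobase of exon it had the lowest knockout level of all 24 genes, 0.046 CPM. DSCAML1, an immunoglobulin superfamily adhesion molecule of neurons (chr11:117427772-117817514), had 7, 11 and 7 reads in the controls and 29, 25 and 27 reads in the knockouts, 0.272 ± 0.0967 against 0.881 ± 0.0484 CPM and a ratio of 3.23. Summed neuronal markers were 63.9 to 119 CPM in the knockouts, a range that held all 3 controls, and 5 of the 12 markers, among them SNAP25, DCX and STMN2, were at 0.

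Axon guidance proteins steer growing nerve fibres. Of 24 axon guidance genes tested, none passed upward and 7 passed downward (29.2%), against 5.71% and 9.33% of all tested genes, with a median log2 difference of -0.26. The guidance receptor gene ROBO2 fell from 6.81 ± 0.0293 to 0.847 ± 0.0521 CPM (log2 difference -2.98, SE 0.12, edgeR adjusted p = 2.5e-05) and the semaphorin gene SEMA3G fell from 2.32 ± 0.154 to 0.436 ± 0.0855 CPM (log2 difference -2.38, SE 0.19, edgeR adjusted p = 0.00043). Without knockout replicate 3 the counts were 6 upward (25.0%) and 8 downward (33.3%), where 21.6% and 22.8% of all genes were called.

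BMPER acts on BMPs, and of 23 other genes of the TGF-beta and BMP pathway tested, 2 passed upward (8.7%, against 5.71% of all tested genes) and 7 downward (30.4%, against 9.33%), with a median log2 difference of -0.18. SMAD7, an inhibitor of the pathway, rose from 3.92 ± 0.0885 to 6.67 ± 0.687 CPM (log2 difference 0.78, SE 0.11, edgeR adjusted p = 0.0046). The other inhibitory SMAD, SMAD6, fell from 5.5 ± 0.22 to 3.96 ± 0.441 CPM (log2 difference -0.45, SE 0.12, edgeR adjusted p = 0.046, close to the limit of 0.05). BMPR2, the type II receptor of BMPs, fell from 37.8 ± 0.718 to 25.5 ± 1.94 CPM (log2 difference -0.55, SE 0.07, edgeR adjusted p = 0.0029). Of the ligands, TGFB3 (log2 difference -1.0, edgeR adjusted p = 0.014) and INHBE (log2 difference -0.63, edgeR adjusted p = 0.0065) fell. The TGFB3 call was lost without any 1 of the control replicates (edgeR adjusted p from 0.05 to 0.07) and without knockout replicate 1 (edgeR adjusted p = 0.059). BMP7 was at 95 ± 0.217 and 106 ± 17.2 CPM without passing (edgeR adjusted p = 0.39), and BMP2 and BMP4 were at 0 in all libraries. Without knockout replicate 3 the counts were 4 upward (17.4%, against 21.6% of all genes) and 12 downward (52.2%, against 22.8%).

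The fit across all genes called 23 of the 23 tested genes higher, where 737 of 12907 tested genes were called (5.71%). The rule used the same contrast, so nothing is read from that count. Just inside the ratio limit of 1.8 were AOX1 at 1.8011, TNFSF13B and ANK1 at 1.809 and TRIM2 at 1.8404 times the highest control. Just outside were LOC101929541 at 1.7997, LRRC32 at 1.7942, BACH2 at 1.7841 and PCAT7 at 1.7755. BACH2, a transcription factor of germinal centre B cells, had 384 CPM as its highest control and 684 CPM as its lowest knockout value.

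**Figure D3:**
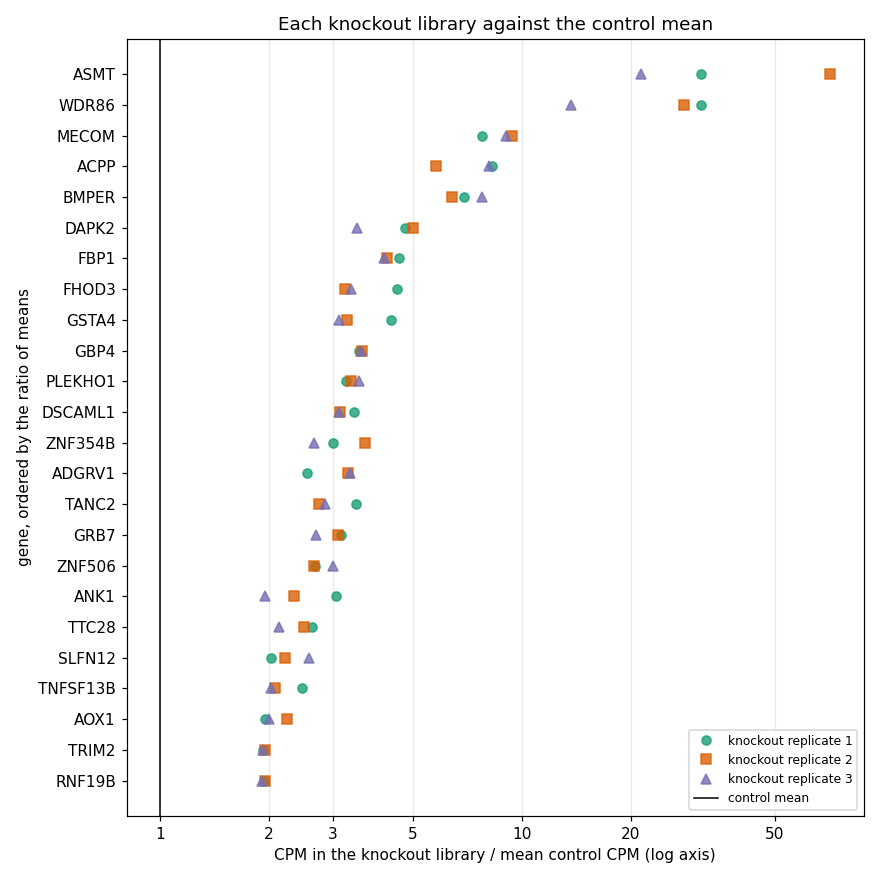
Ratio of each knockout library to the mean of the 3 controls for the 24 genes, on a log axis, 1 point per knockout library. ASMT and WDR86 have the highest ratios and the widest scatter, and RNF19B and TRIM2 the lowest.

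The 3 knockout libraries gave similar ratios for most of the genes. The rule required a high value in each of them, so this is a description and nothing is read from their agreement. The median ratio to the control mean was 3.35 in knockout replicate 1, 3.25 in replicate 2 and 3.12 in replicate 3, the library that stood apart. Replicate 3 was the lowest of the 3 for 13 genes, replicate 1 for 6 and replicate 2 for 5, and among all tested genes replicate 3 was lowest in 42.4%. The coefficient of variation between knockout libraries had a median of 10.7% (0.618% to 64.0%), against 10.1% for all tested genes. Between the controls it was 18.1% against 3.89%, and the controls of these genes held few reads. When each knockout library was left out in turn, no gene other than ASMT moved by more than 1.5 times from its full ratio of means.

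The 24 genes were compared with all tested genes in features that the rule did not use. The tested genes mostly had higher levels and were not matched for them, and whether these features follow the level was not tested. GC content of the exons had a median of 47.5%, from 36.8% in TNFSF13B to 69.7% in WDR86, against 48.1% for all tested genes. Gene length had a median of 46.3 kilobases against 27.6 for all tested genes. It was over 100 kilobases for 10 of the 24 genes (41.7%) and for 16.2% of tested genes, with TTC28 longest at 702 kilobases and GRB7 shortest at 9.35. No gene shared its 6 counts with another gene, and 7 overlapped a named gene on the other strand, FBP1, FHOD3, TTC28, ADGRV1 and WDR86 among them. Names with some prefixes, such as AC, AL, RP and MIR, were left out of that count. On the same strand, DSCAML1 overlapped FXYD2 and AOX1 overlapped AOX3P. The sources used here do not give the strand setting of the authors' counting, so reads of overlapping genes may be mixed. The closest pair, SLFN12 and GRB7 on chromosome 17, lay 4.3 megabases apart.

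Motif matches were counted in the 19 promoter windows on both strands and are a description only. The pattern TTCNNNGAA was found in 4 of the 19 windows (21.1%), those of ACPP, ZNF354B, AOX1 and TRIM2, against 6.44% of the windows of other tested genes and 7.88% of all windows. TGACTCA was found in 2 (10.5%), those of ASMT and SLFN12, against 2.77% and 4.92%. ATGCAAAT was found in 1 (5.26%), that of ASMT, against 1.37% and 1.8%. TATAAA was found in 1 (5.26%) against 5.5% and 12.0%. CANNTG was found in 13 (68.4%) against 60.9% and 68.9%, an NF-kB-type motif in 11 (57.9%) against 72.7% and 58.0%, and GGGCGG in 9 (47.4%) against 68.5% and 44.6%. A GGGCGG match can overlap an NF-kB-type match. In counts this small a single window moves a share by 5.26 percentage points.

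Genes next to the 24 on the chromosome had not been chosen by their values. Of 48 nearest tested neighbours, 6 passed upward (12.5%, against 5.71% of all tested genes), 2 passed downward (4.17% against 9.33%) and 40 passed in neither direction. Their median log2 difference was 0.06, against -0.01 for all tested genes. Without knockout replicate 3 the counts were 15 upward (31.2%) and 8 downward (16.7%), against 21.6% and 22.8% of all genes, and without control replicate 1, 2 or 3 there were 3 upward (6.25%, against 1.93% to 2.03%).

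PCAT7 is a long noncoding RNA on the other strand from FBP1. RefSeq places it 28479 bases away, whereas in GENCODE 29 it overlaps FBP1, so reads of the pair may be mixed. PCAT7 rose from 1.73 ± 0.215 to 3.68 ± 0.434 CPM (log2 difference 1.11, SE 0.16, edgeR adjusted p = 0.004). GBP1, a relative of GBP4 in the same gene cluster, rose from 6.74 ± 0.456 to 11.6 ± 1.66 CPM (log2 difference 0.81, SE 0.13, edgeR adjusted p = 0.006). IKZF3, the lymphoid transcription factor Aiolos, 10430 bases from GRB7, rose from 82.0 ± 0.569 to 117 ± 4.06 CPM (log2 difference 0.53, SE 0.05, edgeR adjusted p = 0.00077). Other genes that overlap one of the 24 had differing values. TPGS2, which overlaps FHOD3, did not pass (145 ± 1.3 and 146 ± 9.06 CPM, log2 0.02, edgeR adjusted p = 0.83), nor did TTC28-AS1, which overlaps TTC28 (7.36 ± 0.607 and 7.53 ± 0.114 CPM, log2 0.05, edgeR adjusted p = 0.78). NUB1, which overlaps WDR86, rose from 71.9 ± 0.8 to 87.0 ± 0.245 CPM (log2 difference 0.29, SE 0.05, edgeR adjusted p = 0.0081), and this call was lost without any one control replicate (adjusted p from 0.05 to 0.068). WDR86-AS1, which also overlaps WDR86, was at 0.296 ± 0.122 and 0.564 ± 0.21 CPM and did not pass (log2 difference 0.97, SE 0.41, edgeR adjusted p = 0.16).

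Relatives by name, genes with the same symbol stem, had not been chosen by their values either. Of 583 tested, 44 passed upward (7.55%, against 5.71% of all tested genes) and 21 downward (3.6%, against 9.33%), with a median log2 difference of 0.06. Without knockout replicate 3 they were 144 upward (24.7%) and 77 downward (13.2%), against 21.6% and 22.8% of all genes. Without 1 of the control replicates they were 7 or 8 upward (1.2% to 1.37%) and 9 to 11 downward (1.54% to 1.89%), against 1.93% to 2.03% and 4.04% to 4.45%, so the upward share was then below that of all genes. ZNF genes made up 388 of them, with 36 upward (9.28%) and 9 downward (2.32%), among them ZNF532, which fell from 7.45 ± 0.598 to 0.344 ± 0.171 CPM (log2 difference -4.39, SE 0.25, edgeR adjusted p = 0.00012). Without knockout replicate 3 the ZNF counts were 103 upward (26.5%) and 33 downward (8.51%), and without 1 of the control replicates 6 or 7 upward (1.55% to 1.8%), again below the share of all genes.

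TANC1 and TANC2 went in opposite directions. TANC1 fell from 0.88 ± 0.16 to 0.0678 ± 0.0909 CPM (log2 difference -3.66, SE 0.61, edgeR adjusted p = 0.0078), while TANC2 was 3.03 times higher. The knockout mean of TANC1 lies under the level of 3 counts, with 1, 5 and 0 reads in knockout replicates 1, 2 and 3. Its log2 difference was -5.46 without replicate 2 and -3.08 without replicate 3. ANK3, the ankyrin of axon initial segments, rose from 4.69 ± 0.343 to 6.84 ± 0.154 CPM (log2 difference 0.56, SE 0.1, edgeR adjusted p = 0.012), a call that was lost without control replicate 2 (adjusted p = 0.058) or 3 (adjusted p = 0.068), and ANK2 did not pass (58.2 against 52.5 CPM, edgeR adjusted p = 0.16). Of 40 TRIM genes other than TRIM2, 3 passed upward (7.5%) and 5 downward (12.5%), and of 55 RNF genes other than RNF19B 1 passed in each direction (1.82%). The shares of all tested genes were 5.71% and 9.33%.

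**Figure D4:**
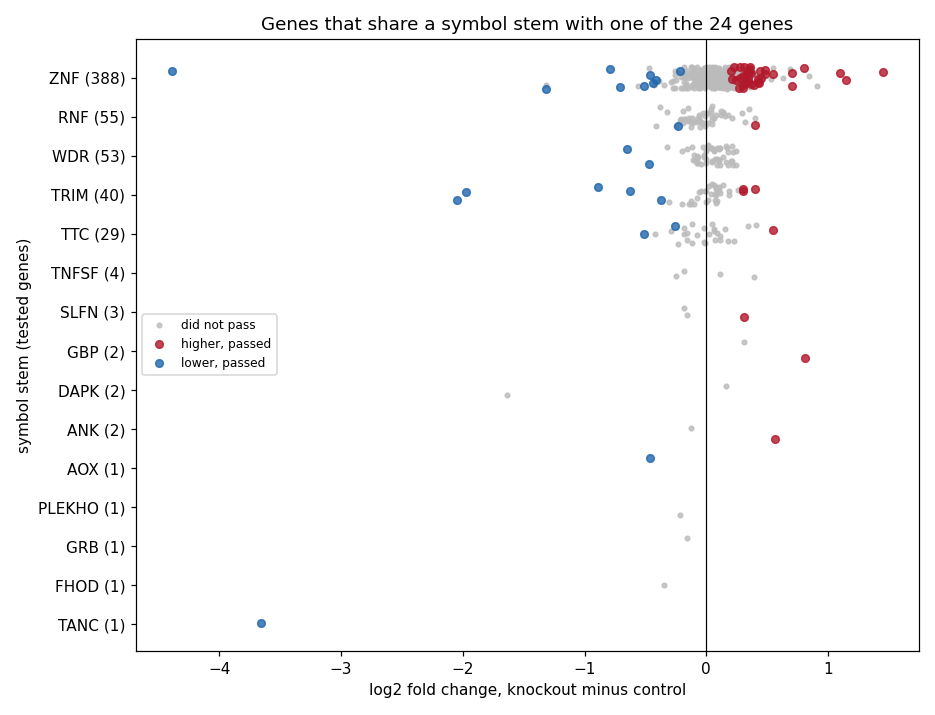
Log2 difference (knockout minus control) of tested genes that share a symbol stem with one of the 24 genes, which are not drawn themselves. TANC1 lies at -3.66, and most relatives lie near 0.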

How the data were processed

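RNA was measured in 6 libraries, 3 per group, and the sample titles gave groups and replicate numbers. The authors deposited raw read counts for each gene as whole numbers. They also deposited log2 values of 12029 genes, which hold 19 of the 24 genes described and were used for nothing else. The submitters' processing notes name hg38, the aligner HISAT2, the counter featureCounts, Trimmomatic, CASAVA 1.8 and DESeq2. The annotation, the strand setting and the handling of multi-mapped reads were not given in the sources used here. Per the labels' protocols, the library kit keeps strand.

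CPM is the count divided by the library's total, times 1000000. The test was edgeR 4.0.16 in R 4.3.3: filterByExpr, TMM scaling, a robust quasi-likelihood fit on group, and Benjamini-Hochberg adjustment over 12907 genes at 0.05. It was also run on simulated counts with equal dispersion for all genes, no outlying library and no differences planted in genes with few reads. These data differ from that setting, so the run does not check calls in genes with few reads or the effect of knockout replicate 3. Positions came from RefSeq (GRCh38.p14) for 23752 symbols matched directly and 1566 through a synonym, while 1167 did not match. Exon length, GC content and overlapping genes came from GENCODE 29. Intervals of pooled counts are exact binomial intervals that cover counting error only.

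Neighbours are the nearest tested gene on each side, and relatives share a symbol stem of 3 or more letters. The 24 genes, the lists and the rules were chosen with earlier results of these data known. Of each list, neighbours and relatives, up to 4 genes with the largest log2 differences past the threshold could be named. TNFRSF13C, TNFRSF17, TNFSF13, BMP7, SMAD6, TPGS2, TTC28-AS1, WDR86-AS1, NUB1 and ANK2 were named for their role or position after their values were seen. Alternatives were RLE scaling, library size only, other filters, DESeq2 1.42.0, a replicate block, leave-one-out fits and, added after the data were seen, a GC correction.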

Additional observations from a re-analysis of the deposited data

How the results depend on the processing

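A looser limit can only add genes to the 24. With a ratio limit of 1.5, 75 genes passed, and with a mean knockout limit of 0.2 CPM 43 passed. Leaving out 1 library cannot lower the ratio that the rule uses, so a gene could drop out only through its mean knockout level. Such removal gave from 32 to 65 genes, the most without knockout replicate 3, and kept at least 23 of the 24. TMM-scaled CPM gave 28 genes with 23 of the 24. A ratio limit of 2 left 17, and a mean knockout limit of 1 CPM left 19. The fit called from 22 to 24 of them higher when 1 library was left out, and 5 with a filter of 5 CPM, where only those 5 were tested.

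Over all tested genes, 737 higher and 1204 lower became 252 to 2817 and 527 to 2978 when 1 library was left out, 2842 and 1982 with the GC correction, and 450 and 876 with the replicate block. Neighbours called, 6 higher and 2 lower, became 3 to 15 and 0 to 8 when 1 library was left out, 19 and 7 with the GC correction, and 5 and 1 with the block. Relatives called, 44 higher and 21 lower, became 7 to 144 and 9 to 77 when 1 library was left out, 191 and 47 with the GC correction, and 21 and 13 with the block, where 3.6% of relatives and 3.49% of all tested genes were called higher. DESeq2, RLE scaling, library size only and the filters kept these counts within 1.5 times. The cause was not tested.

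Deviations of same-numbered control and knockout libraries correlated at 0.066, -0.095 and 0.1 across genes, and control replicate 1 correlated best with knockout replicate 2 (0.199), so the numbers were not taken as pairs. Depth limits the genes under 1 CPM: ASMT and WDR86 had 2 control reads each. The intervals of their ratios are wide and cover counting error only, not the differences between replicates.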
